A study of Sus scrofa with 15 samples.

Results

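BTN1A1 and PLIN5 encode proteins that associate with fat, BTN1A1 at the milk fat globule and PLIN5 on lipid droplets inside cells. BTN1A1, butyrophilin subfamily 1 member A1, is an abundant membrane protein of the milk fat globule: it sits in the apical plasma membrane, where it binds xanthine dehydrogenase (XDH), and it wraps the lipid droplet as the droplet leaves the cell. PLIN5, perilipin 5, coats lipid droplets inside cells, holds back their lipolysis and tethers them to mitochondria, and is best known from heart, oxidative muscle and liver. The genes were picked by their Ensembl identifiers, ENSSSCG00000001132 for BTN1A1 and ENSSSCG00000013513 for PLIN5, and are 2 of the 25322 genes in the count tables and 2 of the 13503 genes tested. The pair was chosen with earlier results of these data known, to contrast a gradual prepartum rise of BTN1A1 with a postpartum rise of PLIN5. The values and tests below therefore describe these courses and are no independent support for them.

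Mammary tissue was biopsied from 3 2nd parity sows (Danish Landrace × Yorkshire crossbreds, Sus scrofa) at 14d, 10d, 6d and 2d prepartum and at 1d postpartum, which gives 5 time points of 3 libraries and 15 libraries of stranded poly(A) mRNA. The 3 sows were those of a larger trial with the highest colostrum yield, and each was fed a different combination of fiber and fat source, 1 fiber source being shared by a pair of them, and the effects of sow and of diet cannot be separated. For the postpartum biopsy piglets were taken away at milk letdown, before anesthesia, and went back to suckling once the sow had recovered. Each sow contributed 1 library to each time point, and no animal served as an untreated or non-pregnant control.

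On the Sscrofa10.2 assembly BTN1A1 lies on chromosome 7, from 22014504 to 22021184 on the plus strand, with 8 exons and 2487 bases of exon. The study's own gene list links this Ensembl gene both to a BTN1A1 record and to a BTN1A1-like record, so reads of a near-identical copy could not be separated from it. PLIN5 lies on chromosome 2, from 74797981 to 74806557 on the plus strand, also with 8 exons and with 1888 bases of exon. Neither gene overlaps another annotated gene.

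Libraries held 10782343 to 19952918 reads counted in genes, with 10782343 to 15744454 in the postpartum libraries. The 10 most abundant genes took 16.6 to 19.5% of the reads at 14d prepartum and 30.5 to 53.8% at 1d postpartum. The 12 luminal epithelial markers linked to a gene, among them CSN2 (β-casein), summed to 3819 to 6152 CPM at 14d prepartum and to 47113 CPM or more at 1d postpartum. At 1d postpartum the milk protein genes CSN2 and LALBA stood at 247889 and 36934 CPM in sow 1. In sow 2, which had the lowest sum, they stood at 20593 and 1467 CPM. The median change of the 12 in +1vs-14 was 0.29. Levels are given in CPM, the read count divided by the library size after TMM scaling, and each 95% interval on a single library is an exact Poisson interval that covers counting error only. In whole tissue, fewer cells of a type and less RNA per cell cannot be told apart.

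BTN1A1 was close to absent at 14d prepartum and rose at every sampling up to 2d prepartum in every sow. At 14d prepartum it stood at 3.30 CPM in sow 1, 1.21 in sow 2 and 0.194 in sow 3, the last resting on 4 reads. At 10d prepartum the values were 7.52, 8.56 and 1.11 CPM, and at 6d prepartum 24.99, 29.1 and 3.94 CPM. Sow 3 was the lowest of the 3 at each of these time points, and sows 1 and 2 lay closer to each other at 10d and 6d than at 14d prepartum. At 2d prepartum the levels reached 124, 164 and 33.4 CPM in sows 1, 2 and 3. Within a sow the step was 2.28- to 7.04-fold from 14d to 10d, 3.32- to 3.54-fold from 10d to 6d and 4.98- to 8.48-fold from 6d to 2d prepartum. The middle step was thus nearly the same size in all 3 sows, although their levels differed by 7.69-fold at 10d prepartum.

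**Figure D1:**
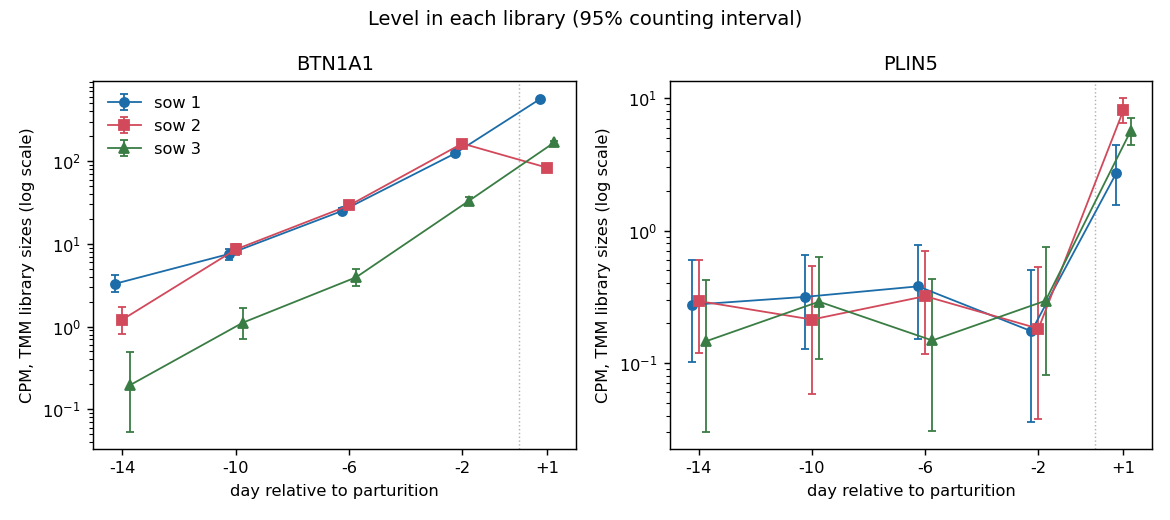
Level of BTN1A1 (left) and PLIN5 (right) in each of the 15 libraries, in CPM with TMM library sizes on a log axis, against the day relative to parturition. Each line joins the 5 libraries of a sow, bars are 95% counting intervals and points are shifted sideways by sow to keep them apart. BTN1A1 climbs from 0.194 to 3.30 CPM at 14d prepartum to 33.4 to 164 CPM at 2d prepartum in all 3 sows, while PLIN5 stays between 0.145 and 0.379 CPM until 2d prepartum and reaches 2.72 to 8.13 CPM at 1d postpartum.

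Parturition did not move the 3 sows alike. At 1d postpartum BTN1A1 stood at 566 CPM in sow 1, 83.4 in sow 2 and 169 in sow 3. Sows 1 and 3 had gained 4.55- and 5.04-fold since 2d prepartum, while sow 2 had 0.510 times its prepartum level, although it had been the highest of the 3 at 2d prepartum. Group means in time order were 1.57 ± 1.58, 5.73 ± 4.03, 19.3 ± 13.5, 107 ± 66.8 and 273 ± 258 CPM (SD, n = 3). Per kilobase of exon these are 0.631, 2.30, 7.78, 43.1 and 110 CPM, and the SD of the log2 level lay between 1.22 and 1.75 at all 5 time points.

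PLIN5 showed no such climb. It was near the detection limit in all 12 prepartum libraries, with 3 to 7 reads in each and 59 in all. Levels at 14d prepartum were 0.275, 0.293 and 0.145 CPM in sows 1, 2 and 3, and at 2d prepartum they were 0.173, 0.181 and 0.295 CPM. Across the prepartum libraries the median was 0.282 CPM, and the counting intervals of single libraries reached up to 0.780 CPM, so differences among the prepartum time points were not detectable at this depth. At 1d postpartum PLIN5 stood at 2.72 CPM in sow 1 (16 reads, interval 1.56 to 4.42), 8.13 in sow 2 (82 reads, 6.46 to 10.1) and 5.62 in sow 3 (77 reads, 4.44 to 7.03). The lowest of these intervals lies above the highest interval of any prepartum library. Within a sow the step from 2d prepartum was 15.7-, 44.8- and 19.1-fold in sows 1, 2 and 3, each over a prepartum count of 3 or 4 reads.

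Group means of PLIN5 were 0.238 ± 0.0805, 0.273 ± 0.0536, 0.282 ± 0.120 and 0.217 ± 0.0680 CPM at the 4 prepartum time points and 5.49 ± 2.70 CPM at 1d postpartum (SD, n = 3). Even then it was a minor transcript: per kilobase of exon it averaged 2.91 CPM, against 110 CPM for BTN1A1 in the same 3 libraries. Among the 13503 tested genes ranked by level per kilobase, BTN1A1 moved from ranks 11358 to 13453 at 14d prepartum to ranks 284 to 2045 at 1d postpartum, and PLIN5 from ranks 13372 to 13455 to ranks 8766 to 11091.

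The tests followed the same lines. A gene was called when the adjusted p for an overall effect of time and that for the comparison were both 0.05 or less, by edgeR's quasi-likelihood test with Benjamini-Hochberg adjustment over 13503 genes. In the -2vs-14 time comparison BTN1A1 was upregulated by 6.08 on the log2 scale (SE 1.14, adjusted p = 0.0175), which is 67.7-fold with a 95% interval of 12.4 to 371, and it ranked 9 of 13503 by fold change. Of all tested genes 2.85% were called in that comparison, 1.96% higher and 0.896% lower. PLIN5 differed by -0.17 (SE 0.57, adjusted p = 0.894), with an interval from 0.382- to 2.07-fold. In the +1vs-14 time comparison both genes were called, beside 23.7% of genes in either direction, 13.3% higher and 10.4% lower: BTN1A1 by 7.42 (SE 1.19, adjusted p = 0.000502) and PLIN5 by 4.50 (SE 0.44, adjusted p = 1.84e-05). The 4 comparisons against 14d prepartum share their baseline libraries.

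Taken step by step, no single step of BTN1A1 passed the test. The changes were 1.85 (SE 1.08, adjusted p = 1.00) for -10vs-14, 1.75 (SE 0.95, adjusted p = 0.730) for -6vs-10, 2.47 (SE 0.92, adjusted p = 0.594) for -2vs-6 and 1.34 (SE 0.88, adjusted p = 0.328) for +1vs-2. These prepartum steps called next to no gene of any kind by edgeR: -10vs-14 gave 0 genes, -6vs-10 gave 0 and -2vs-6 gave 1, called higher (0.00741% of those tested). At an unadjusted p up to 0.05 the numbers were 296, 953 and 1078, by DESeq2 0, 28 and 44, and by limma-voom 0, 0 and 0. In -6vs-14, where edgeR called 0 genes (1189 unadjusted, 122 by DESeq2 and 23 by limma-voom), BTN1A1 differed by 3.61 (SE 1.07, adjusted p = 0.325). Its 3 later libraries all lay above its 3 earlier ones in -6vs-14, -2vs-14, +1vs-14 and -2vs-6, as did 9.95, 15.2, 19.5 and 9.54% of tested genes, and they overlapped in -10vs-14, -6vs-10 and +1vs-2.

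For PLIN5 the only step that passed was the last. It changed by 4.67 in +1vs-2 (SE 0.47, adjusted p = 8.20e-05), which is 25.4-fold with an interval of 12.6 to 51.2, and ranked 24 of 13503, where 15.3% of genes were called, 8.01% higher and 7.24% lower. The prepartum steps were 0.19 (SE 0.52), 0.03 (SE 0.52) and -0.38 (SE 0.57), with adjusted p of 1.00, 0.997 and 0.890. All 3 postpartum libraries lay above all 12 prepartum libraries, as for 7.91% of tested genes. PLIN5 entered the test only through those 3 libraries, as did 15 other genes, and all 16 such genes were called higher in +1vs-14 and 14 of them in +1vs-2: a gene let in by its high group has to differ there. The value in each library above does not depend on that filter.

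**Figure D2:**
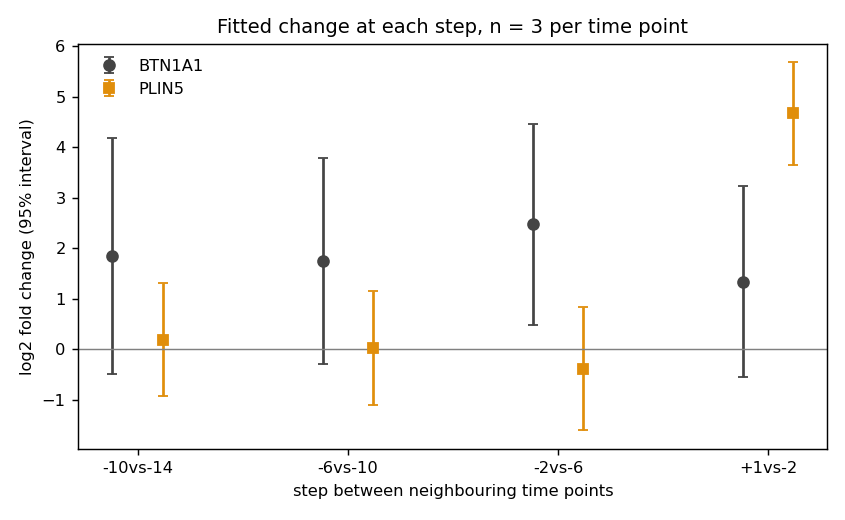
Fitted log2 fold change of BTN1A1 (circles) and PLIN5 (squares) at each of the 4 steps between neighbouring time points, with 95% intervals, from 3 libraries per time point. The 3 prepartum steps of BTN1A1 lie at 1.85, 1.75 and 2.47 and its postpartum step at 1.34, whereas PLIN5 lies between -0.38 and 0.19 before parturition and at 4.67 after it.

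A line over the 4 prepartum time points summarised the gradual rise. BTN1A1 gained 2.00 on the log2 scale per 4 days (SE 0.36, adjusted p = 0.0112), a factor of 4.00 with an interval of 2.35 to 6.81, and ranked 8 of 13503 by slope, where 4.28% of genes were called, 2.86% higher and 1.42% lower. The slope of PLIN5 was -0.05 (SE 0.18, adjusted p = 0.898), with an interval of -0.43 to 0.33. Set against the mean of the 4 prepartum time points, 1d postpartum was higher by 4.54 for BTN1A1 (SE 0.61, adjusted p = 8.76e-05) and by 4.44 for PLIN5 (SE 0.28), with 24% of genes called, 13.5% higher and 10.5% lower. All 16 genes that entered through the postpartum libraries alone were called higher here too, so the value for PLIN5 is a description.

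That difference in course was tested within each gene as the postpartum step (+1vs-2) minus the prepartum change (-2vs-14). For PLIN5 it was 4.84 (SE 0.94, adjusted p = 0.0208, called, beside 2.88% of genes, 1.33% higher and 1.55% lower). PLIN5 was tested only through its high postpartum libraries, and of the 16 such genes 4 were called higher in this contrast, for which the pair was also chosen. For BTN1A1 it was -4.74 (SE 1.54, adjusted p = 0.112) and was not called, while a fit blocked on the sow gave -4.64 (SE 1.02, adjusted p = 0.0242), which was called. Without the postpartum library of sow 1 it was -5.86 (adjusted p = 0.0179) and was called as well.

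Several of these calls rest on single libraries. The -2vs-14 call of BTN1A1 was lost without the 14d prepartum library of sow 2 or of sow 3 or the 2d prepartum library of sow 2 (adjusted p = 0.0919, 0.0674 and 0.0631, with changes of 5.91, 5.57 and 5.64), and that of its trend without the 14d prepartum library of sow 2 (adjusted p = 0.0625); the difference in course of PLIN5 lost its call without the 14d prepartum library of sow 2 or any 1 of the 2d prepartum libraries (adjusted p from 0.0523 to 0.106), without all libraries of sow 2 (4.06, adjusted p = 0.303) or of sow 3 (5.57, adjusted p = 0.260), and also on total counts without TMM (5.06, adjusted p = 0.0595) and in a fit of only the time points compared (4.83, adjusted p = 0.117). RNA integrity moved with time, being on average lowest at 14d prepartum and highest at 2d prepartum and 1d postpartum, and with it as a covariate BTN1A1 changed by 3.20 in -2vs-14 (SE 2.35, adjusted p = 1.00) and by 3.82 in +1vs-14 (SE 2.84, adjusted p = 0.590), while PLIN5 changed by 4.67 in +1vs-2 (SE 0.50, adjusted p = 0.000231) and lost its calls in +1vs-14 (4.48, adjusted p = 0.114) and in the difference in course (4.85, adjusted p = 0.354). The trend of BTN1A1 and its postpartum excess over the prepartum mean lost theirs too (1.09 and 2.60, adjusted p = 0.988 and 0.338), and time and RNA integrity cannot be told apart there.

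The ratio of both transcripts within a library needs no library size. Per kilobase of exon, BTN1A1 exceeded PLIN5 by 9.11, 3.15 and 1.01 times in sows 1, 2 and 3 at 14d prepartum, and the last interval, 0.171 to 6.91, includes equality. At 2d prepartum the ratios were 544, 685 and 85.97, each over 3 or 4 PLIN5 reads. At 1d postpartum they were 158 (interval 97.1 to 277), 7.80 (6.21 to 9.90) and 22.7 (18.1 to 28.9). The ratio thus rose in 3 of 3 sows at each prepartum step and fell in 3 of 3 sows across parturition, least in sow 1 and most in sow 2.

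**Figure D3:**
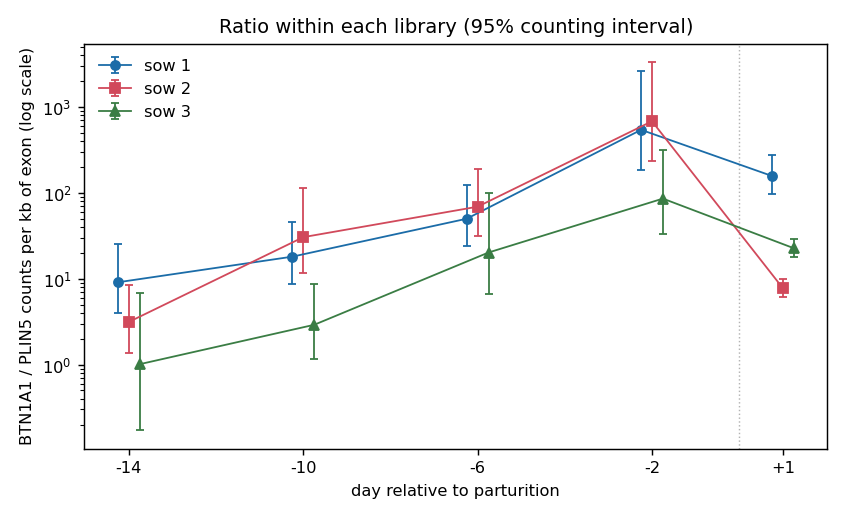
Ratio of BTN1A1 to PLIN5 counts per kilobase of exon in each library, on a log axis, with 95% counting intervals; lines join the libraries of a sow. The ratio rises from 1.01 to 9.11 at 14d prepartum to 85.97 to 685 at 2d prepartum and lies at 7.80 to 158 at 1d postpartum.

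On the log2 scale the ratio changed by 1.80 (SE 1.27) in -10vs-14, by 1.74 (SE 1.16) in -6vs-10, by 2.84 (SE 1.08) in -2vs-6 and by -2.79 (SE 1.53) in +1vs-2, and by 6.38 (SE 1.20) in -2vs-14. Two-sided exact permutation tests of 3 libraries against 3 gave p = 0.3, 0.3, 0.1, 0.2 and 0.1, and 0.3, 0.3, 0.25, 0.3 and 0.25 after Benjamini-Hochberg adjustment over these 5. These tests and errors set the sows aside, and the smallest p they allow is 0.1. Within sows the changes were closer: for -2vs-6 they were 3.09, 3.04 and 2.40 in sows 1, 2 and 3, with a mean of 2.84 (SE 0.22), and for -6vs-10 they were 1.52, 1.35 and 2.35 (SE 0.31). Across parturition they were -1.12, -5.77 and -1.48 (SE 1.495). An exact two-sided sign-flip test over the 3 sows gave p = 0.25 at each step, the smallest it allows, so neither permutation test could pass.

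Between the 3 libraries of 1d postpartum the genes stood in opposite order. BTN1A1 was highest in sow 1, then sow 3, then sow 2, and PLIN5 was highest in sow 2, then sow 3, then sow 1. These were also the most frequent orders among the 13503 tested genes, held by 21.9 and 21.5% of them. The orders with sow 1 likewise first or last but sows 2 and 3 exchanged were held by 18.4 and 19.5%. What sets the members in opposite order was not tested. The library of sow 1 had the lowest TMM factor, 0.545, and its 10 most abundant genes took 53.8% of its reads; on total counts without TMM both genes kept these orders. With 3 libraries no correlation was computed. Of the 8 other tested genes of the milk fat globule list 6 had the order of BTN1A1, among them XDH, LALBA (α-lactalbumin) and MFGE8 (lactadherin), and 13 of the 18 tested genes of fatty acid and sterol synthesis had it too, FASN, ACACA and SCD included. PLIN5 shared its order with 3 other genes of the 19 tested in the lipid droplet list, MGLL (monoglyceride lipase), RAB3GAP2 and LDAH. In the same list 4 genes had the order of BTN1A1 instead, CIDEA, LIPE, ZFYVE1 and AIFM2.

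Of 8 other tested genes of the milk fat globule and its secretion, the -2vs-14 time comparison called 3 higher, +1vs-14 called 6 and +1vs-2 called 2, beside 1.96, 13.3 and 8.01% of all tested genes, and none was called lower in these; their median changes were 1.44, 2.38 and 0.77, against -0.01, 0.02 and 0.02 over all tested genes. XDH, the enzyme that BTN1A1 binds at the apical membrane, rose before parturition as well: it stood at 199 to 429 CPM at 14d prepartum, 3337 to 9127 CPM at 2d prepartum and 3751 to 11206 CPM at 1d postpartum. Its change was 4.16 in -2vs-14 (SE 0.68, adjusted p = 0.00959) and 0.06 in +1vs-2 (SE 0.60, adjusted p = 0.965). LALBA, the whey protein that starts lactose synthesis, changed by 7.21 (adjusted p = 0.0456) and then by 3.68 (adjusted p = 0.104). Blocked on the sow, the fit called 6 of the 9, BTN1A1 included, higher in -2vs-14 and 4 in +1vs-2. Over all tested genes that fit called 1171 in -2vs-14 and 2710 in +1vs-2, in either direction.

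CIDEA, a lipid droplet protein needed for milk lipid secretion, is listed with the globule genes but had a late rise like that of PLIN5. It stood at 0.145 to 0.962 CPM at 14d prepartum, 0.664 to 2.08 CPM at 2d prepartum and at 122, 14.1 and 31.1 CPM in sows 1, 2 and 3 at 1d postpartum. The postpartum libraries all lay above the others, as for 7.91% of tested genes. The change was 5.26 in +1vs-2 (SE 0.73, adjusted p = 0.00048) and 1.43 in -2vs-14 (adjusted p = 0.359). The postpartum step minus the prepartum change was 3.83 (SE 1.39, adjusted p = 0.156) and was not called. Between the postpartum libraries CIDEA had the order of BTN1A1. GPAT4, a glycerol-3-phosphate acyltransferase that starts triacylglycerol synthesis, was called at both stages, by 1.09 in -2vs-14 (adjusted p = 0.0449) and 1.17 in +1vs-2 (adjusted p = 0.0081).

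The lipid droplet list held 19 tested genes, PLIN5 included. In -2vs-14 1 was called higher and 1 lower, in +1vs-14 11 higher and 1 lower, and in +1vs-2 8 higher and 0 lower, with medians of 0.20, 0.70 and 0.50. Over all tested genes 2.85, 23.7 and 15.3% were called in these comparisons. Beside PLIN5 and CIDEA, the genes called higher in +1vs-2 were CIDEB at 1.46, the monoglyceride lipase MGLL at 0.75, ABHD5, an activator of lipolysis, at 0.73, the triglyceride lipase PNPLA2 at 0.70, DDHD2 at 0.65 and AUP1 at 0.50. PLIN5 is one of 3 perilipins linked to a tested gene, and PLIN2 and PLIN3 could not be linked to any. PLIN1, the perilipin of fat cells, fell by 2.93 in -2vs-14 (adjusted p = 0.047), from 2.45 ± 1.62 to 0.312 ± 0.200 CPM. PLIN4 changed by -3.04 (adjusted p = 0.0841) and was not called. At 2d prepartum PLIN1 had 9, 2 and 4 reads in sows 1, 2 and 3, and PLIN4 had 11 in each. In +1vs-2 PLIN1 changed by 0.85 and PLIN4 by 1.86, with adjusted p of 0.546 and 0.198. On total counts without TMM, RAB3GAP1, which was called higher in -2vs-14, and AUP1, ZFYVE1 and RAB3GAP1 in +1vs-14 turned negative. Blocking on the sow gave 3 genes higher and 2 lower in -2vs-14, where that fit called 1171 of all tested genes in either direction.

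Of 14 tested genes of triacylglycerol synthesis 2 were called higher in -2vs-14, GPAM at 0.94 and GPAT4, 6 in +1vs-14 and 1 in +1vs-2, where GPAM fell by 0.56. Blocking on the sow gave 7 higher and 1 lower in -2vs-14, and 4 higher in +1vs-2. Of 18 tested genes of fatty acid and sterol synthesis none was called in -2vs-14 (3 higher and 1 lower when blocked on the sow), 13 were higher in +1vs-14 and 8 in +1vs-2, led by INSIG1, a sensor of the sterol pathway, at 2.75, and SQLE, squalene epoxidase, at 2.24. The counts without the sow as a block stand beside the same 2.85, 23.7 and 15.3% of all tested genes. Over all tested genes the unblocked fit called 385 in -2vs-14 and 2060 in +1vs-2, in either direction. Blocked on the sow, the numbers were 1171 and 2710, and the blocked list counts stand beside these. BTN1A1 was the only tested gene of the butyrophilin list.

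**Figure D4:**
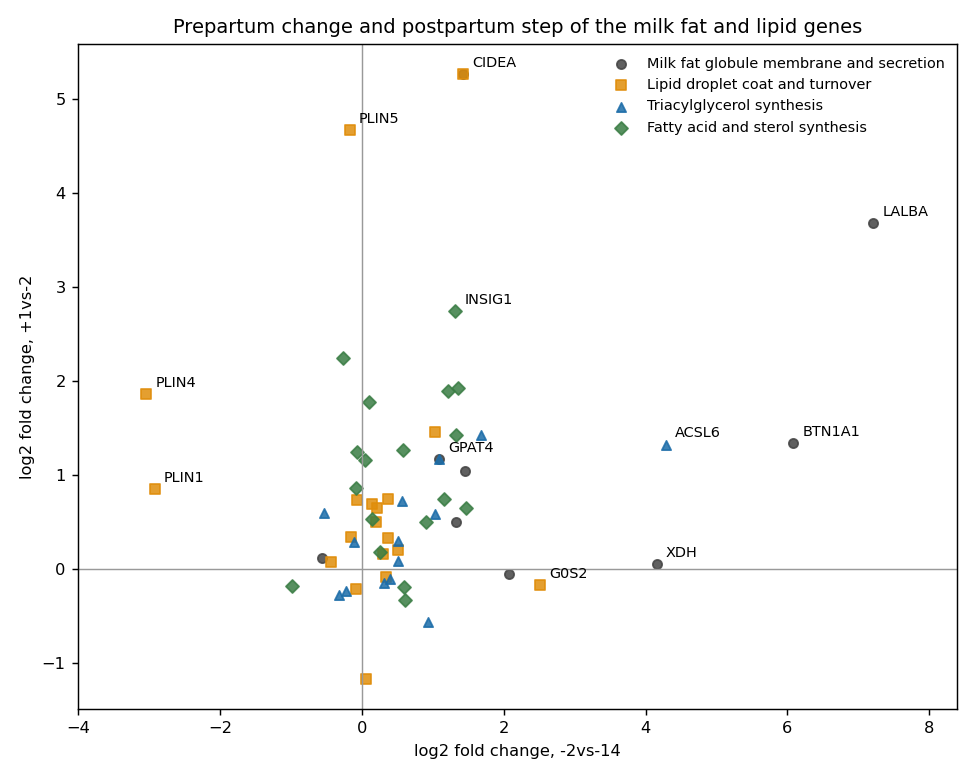
Log2 fold change in -2vs-14 (horizontal) against that in +1vs-2 (vertical) for the tested genes of the 4 lists on milk fat and lipid, with a colour and shape per list and genes of 2 lists drawn over each other. BTN1A1 (6.08, 1.34) and XDH (4.16, 0.06) lie to the right, PLIN5 (-0.17, 4.67) and CIDEA (1.43, 5.26) at the top and PLIN1 and PLIN4 to the left.

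Over all 15 libraries the gene with a symbol whose log2 level ran most like BTN1A1 was LALBA (Pearson r = 0.979, rank 4 of 13502 after 3 genes without a symbol), followed by XDH (0.967), CSN2 (0.965), the acyl-CoA synthetase ACSL6 (0.965) and DNAJC6 (0.962). Most like PLIN5 were STARD10 (0.979), VMP1 (0.967), CEBPD (0.967), LGI4 (0.965) and RHBDF1 (0.965). STARD10 is a lipid transfer protein, VMP1 a membrane protein needed for autophagy and CEBPD a transcription factor. The 5 genes nearest to PLIN5 differed by 1.40 to 3.18 in +1vs-2, all called, and by -0.19 to 0.30 in -2vs-14. Over all tested genes 8.01% were called higher in +1vs-2. The 5 were picked for likeness to PLIN5 in these same libraries, so this course follows from the choice. PLIN5 itself ranked 2386 of 13502 in likeness to BTN1A1 (r = 0.558). These are descriptions over 15 libraries that share 3 sows and 5 time points, and the choice of measure matters: by Spearman's rho, or on deviations from the time point means, 2 of the 5 genes nearest to BTN1A1 remained and 0 of the 5 nearest to PLIN5.

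By Pearson r of the log2 level, the gene most like PLIN5 of all 13502, named or not, was its upstream neighbour. ENSSSCG00000013514, which has no symbol in the tables used, lies on chromosome 2 from 74792835 to 74794961 on the same strand and ends 3.02 kb before PLIN5 begins (r = 0.982). It stood at 2.01 to 2.79 CPM at 14d prepartum, 3.69 to 3.99 CPM at 2d prepartum and 71.6, 351 and 219 CPM in sows 1, 2 and 3 at 1d postpartum. That is the order of PLIN5 among the sows, which 21.5% of tested genes held. The neighbour's change in +1vs-2 was 5.80 (SE 0.46, adjusted p = 2.43e-05). PLIN5 reads came to 3.80, 2.31 and 2.56% of the neighbour's reads at 1d postpartum and to 4.48 to 14.6% before it. The tables give 1 count for a whole gene, so the position of reads within PLIN5, and any part of transcripts that run on from the neighbour in its count, was not tested. PLIN4 begins 4.32 kb downstream on the same strand and did not share the course: it stood at 0.340, 3.07 and 3.80 CPM in sows 1, 2 and 3 at 1d postpartum and at 1.55 to 9.11 CPM at 14d prepartum.

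**Figure D5:**
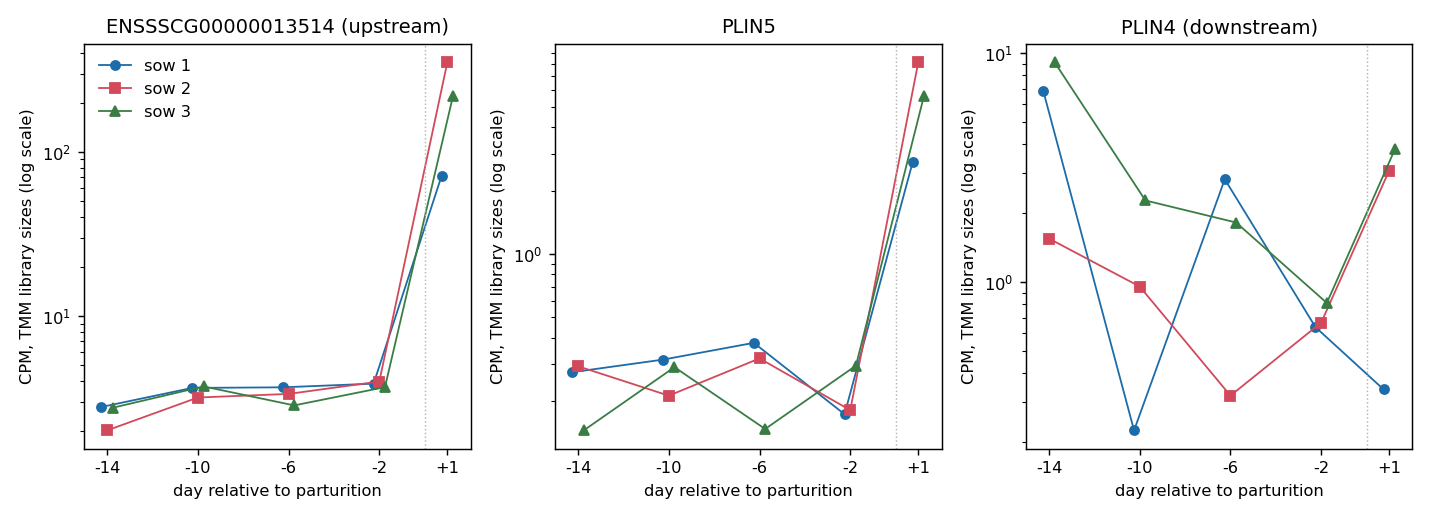
Level of the upstream neighbour ENSSSCG00000013514 (left), PLIN5 (middle) and the downstream neighbour PLIN4 (right) in each library, in CPM on log axes of different range, against the day relative to parturition; lines join the libraries of a sow. The upstream neighbour reaches 71.6 to 351 CPM and PLIN5 2.72 to 8.13 CPM at 1d postpartum, with the sows in the same order, and PLIN4 shows no common course.

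Markers of other cells in which PLIN5 is known were read beside its postpartum rise. The 5 striated muscle markers linked to a gene summed to 9.43 to 15.3 CPM in the prepartum libraries and to 46.6 to 113 CPM at 1d postpartum. Of the 4 tested, ACTC1 and ACTA1, the cardiac and skeletal muscle α-actins, were called higher in +1vs-2, by 3.05 (adjusted p = 0.000225) and 2.71 (adjusted p = 0.00196), while TNNI3 and TMOD4 differed by 0.42 and -0.08 (adjusted p = 0.414 and 0.920) and the fifth marker had no read in any library. ACTC1 was highest in sow 3 at 84.2 CPM, against 35.4 in sow 1 and 49.0 in sow 2, which is not the order of PLIN5, and ACTA1 was likewise highest in sow 3. TNNI3 did have the order of PLIN5, at 2.21, 3.67 and 2.92 CPM in sows 1, 2 and 3. The 5 fat cell markers summed to 33.5 to 61.0 CPM before and 63.4 to 93.0 CPM after parturition. CFD (adipsin) was the only one called in +1vs-2, higher by 1.05. At 1d postpartum PLIN1 stood at 0.514 ± 0.354 CPM, and PLIN4, LIPE and CIDEC averaged 2.40, 6.36 and 4.10 CPM. In +1vs-14 the median of the 5 was -0.36, with 1 called higher and 1 lower, beside 13.3 and 10.4% of all tested genes. The lower one was PLIN1, at -2.07 (edgeR adjusted p = 0.0378). The 4 myoepithelial markers summed to 1076 to 1344 CPM before and 1517 to 2089 CPM after, with 2 of 4 called higher, and ACTA2 among them turned negative in +1vs-14 on total counts without TMM. Stromal, leukocyte and endothelial markers summed to 3829 to 7832, 391 to 487 and 425 to 569 CPM over all prepartum libraries. At 2d prepartum alone the sums were 3829 to 4391, 405 to 436 and 470 to 499 CPM. At 1d postpartum they were 2225 to 4173, 337 to 397 and 371 to 442 CPM. In +1vs-2 the medians were -0.05, -0.06 and -0.15. Of 9 stromal genes 1 was called higher there and 0 lower, of 9 leukocyte genes 0 higher and 1 lower, and of 6 endothelial genes 0. Of the 12 luminal markers 3 were called higher and 2 lower in +1vs-2 (5 and 3 when blocked on the sow), the higher ones being LCN2 (lipocalin 2), by 6.15, and the keratins KRT8 and KRT18, by 1.16 and 1.43. Those called lower were the transcription factors FOXA1 and TFAP2C, by -1.52 and -1.22. Beside these marker counts, 8.01% of all tested genes were called higher and 7.24% lower in +1vs-2. Blocked on the sow, 2710 of 13503 were called there in either direction. The part of these cell types in the course of either gene was not tested.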

How the data were processed

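The study's methods and the labels give trimming with Trimmomatic, alignment with STAR 2.5.1b to Sscrofa10.2 and counting with featureCounts 1.5.0. Per the file headers, the authors deposited raw read counts per gene, reverse-stranded over exons of Ensembl release 86 (the methods name a RefSeq annotation). Here, in R 4.3.3, genes with at least 1 CPM in at least 3 libraries were tested (13503 of 25322) with edgeR 4.0.16 (TMM, quasi-likelihood, time as the only factor, all 15 libraries, prior count 2 for log2 levels). limma 3.58.1 (voom, sow random), DESeq2 1.42.0, other scalings, filters and left-out libraries were alternatives. The fits were tested on simulated data.

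The sow of a library came from the study's alignment summary, joined by exact total count. Libraries of a sow deviated together (r at least 0.103 over 30 pairs, mean 0.396, against -0.198 over 60 pairs of other sows). Libraries of a time point came from different sows. Symbols came from a reference table (11804 genes) and the study's gene list (277 more). Named genes were the members, the listed genes with a symbol, the 5 most like each member and their neighbours. Members and lists were chosen with earlier results of these data known. Promoter and protein sequences were not used here.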

Additional observations from a re-analysis of the deposited data

How the results depend on the processing

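RNA integrity as a covariate and leaving out a sow were chosen after seeing the data. Where a call ended, the cause was not tested. Signs of BTN1A1 held under every alternative run. PLIN5 could not be tested with 1 CPM required in 5 libraries. Its near-zero step -6vs-10 turned to -0.10 on total counts without TMM and to -0.047 by limma-voom.

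Its difference in course lost its call on total counts without TMM (5.06) and with only the time points compared (4.83), and that of BTN1A1 gained one with the sow as a block (-4.64), which changed no other call of either gene. With RNA integrity the calls of BTN1A1 in -2vs-14 (3.20), +1vs-14 (3.82), trend (1.09) and postpartum against prepartum mean (2.60) were lost, and those of PLIN5 in +1vs-14 (4.48) and in the difference (4.85).

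Genes called, in the order -6vs-14, -2vs-14, -2vs-6, trend and difference, numbered 0, 385, 1, 578 and 389 by edgeR, 122, 1083, 44, 1367 and 955 by DESeq2, 23, 1106, 0, 1433 and 774 by limma-voom, and 63, 1171, 4, 1454 and 820 with the sow as a block. In -6vs-10 DESeq2 called 28 and the sow block 1. Without TMM the numbers were 1428 for -2vs-14, 5693 for +1vs-14, 2435 for the trend, 5554 for postpartum against prepartum mean and 93 for the difference. No filter gave 8 in -6vs-14. Only the time points compared gave 9 for -6vs-14, 0 for -2vs-6, 416 for +1vs-2 and 1 for the difference. RNA integrity called 0 genes for -2vs-14, 76 for +1vs-14, 0 for -2vs-6, 999 for +1vs-2, 0 for the trend, 923 for postpartum against prepartum mean and 2 for the difference.

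Without TMM the median of all genes shifted by -0.40 for -2vs-14, by -0.65 for +1vs-14 and by -0.25 for +1vs-2; relative to it BTN1A1 changed by 6.06, 7.19 and 1.13 and PLIN5 by -0.15, 4.57 and 4.72. The share of calls that were higher fell from 68.6 to 11.2% for -2vs-14, from 56.2 to 9.34% for +1vs-14, from 52.5 to 17.4% for +1vs-2, from 66.8 to 7.64% for the trend, from 56.2 to 10.5% for postpartum against prepartum mean and from 46.3 to 32.3% for the difference.

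With 1 library or sow left out, PLIN5 ranged from -0.090 to 0.50 (-10vs-14), -0.051 to 0.53 (-6vs-14), -0.66 to 0.11 (-2vs-14), -0.24 to 0.38 (-6vs-10), -0.95 to 0.017 (-2vs-6), -0.16 to 0.012 for the trend and 4.06 to 5.57 for the difference. BTN1A1 ranged from 5.48 to 7.18 in -2vs-14, 1.82 to 2.33 for the trend and -6.71 to -3.27 for the difference; its -2vs-14 and trend calls were also lost without sow 1 (7.06 and 2.30) or sow 2 (5.48 and 1.82). Genes called ranged from 0 to 2 for -6vs-14, 6 to 573 for -2vs-14, 845 to 3853 for +1vs-14, 0 to 2 for -2vs-6, 262 to 3014 for +1vs-2, 8 to 742 for the trend, 846 to 3873 for postpartum against prepartum mean and 0 to 1832 for the difference. The 3 to 7 prepartum reads of PLIN5 limit what its prepartum values can show.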

Other observations

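The 5 annotated genes on either side of PLIN5 were tested, all 10 of them. Of these, the upstream neighbour was the only one called higher in +1vs-2, where 8.01% of all tested genes were called higher and 7.24% lower. 3 others were called lower there: UHRF1, a factor that maintains DNA methylation behind the replication fork, by -2.14 (adjusted p = 0.00189), CHAF1A, the large subunit of the chromatin assembly factor that acts at the fork, by -0.80 (adjusted p = 0.00376), and the histone demethylase KDM4B by -0.47 (adjusted p = 0.00491), all by edgeR's quasi-likelihood test. UHRF1 went from 29.3 CPM at 2d prepartum to 7.04 CPM at 1d postpartum. Around BTN1A1 8 of the 10 neighbours were at or close to 0 and not tested. H2BC5 and H1-3, 23.4 and 51.5 kb downstream, were tested, and their changes in -2vs-14 were 0.46 and 1.08 (adjusted p = 0.437 and 0.122).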
